A study of Mus musculus with 6 samples.

Results

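Smooth muscle and pericyte contractile genes were examined in whole cochleae of wildtype and Pou4f3(Δ/+) mice. The set held 10 genes of the 51802 gene symbols listed: Myl9, Acta2, Tagln, Myh11, Cnn1, Actg2, Des, Pdgfrb, Rgs5 and Lmod1. The genes were chosen by name, because Myl9 had been seen to be lower in Pou4f3(Δ/+) cochleae in earlier results of these same data, and the question was whether other genes of the programme were lower too. The levels that compare the genotypes are therefore given as a description: no test of the set was made, and the calls of its members in the fits across all genes are given as counts from which nothing is read.

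Bulk RNA-seq libraries were made from total RNA of cochleae at 2 months of age on a C57/BL6J background. Wildtype had 3 samples, numbered 3 to 5, and Pou4f3(Δ/+) had 3, numbered 1 to 3. Pou4f3(Δ/+) mice carry 1 wildtype allele and 1 knock-in allele of Pou4f3, a hair cell transcription factor, with a small deletion that truncates the protein, which models the human deafness DFNA15. The labels do not say whether a sample is 1 animal, 1 ear or a pool, so errors between replicates measure the spread between these samples and may be partly technical. Pou4f3 is made in hair cells, whereas the RNA came from the whole cochlea with its bone, marrow, nerve and vessels. In such bulk RNA, fewer cells of a type and less RNA per cell cannot be told apart.

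Smooth muscle cells ring arteries and arterioles, and pericytes sit on capillaries. Both regulate flow by contraction: calcium activates myosin light chain kinase, which phosphorylates the regulatory light chain of smooth muscle myosin, and the myosin then pulls on actin filaments. Transcription of the contractile genes depends on serum response factor (SRF), which binds a DNA element named the CArG box, and on myocardin, a coactivator that binds SRF. In the cochlea, pericytes are dense along the capillaries of the stria vascularis and the spiral ligament, and smooth muscle surrounds the spiral modiolar artery. Signals from platelet-derived growth factor (PDGF) through the receptor Pdgfrb recruit pericytes to vessels.

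Myl9 (ENSMUSG00000067818, chromosome 2 from 156775420 to 156781658, plus strand, GRCm38) encodes the regulatory light chain, and Rgs5 (ENSMUSG00000026678, chromosome 1 from 169655501 to 169695813, plus strand) encodes a regulator of G protein signalling that marks pericytes. These were the most abundant members, and their upstream sequences are shown because the promoter window of Myl9 holds a CArG box and a near match and that of Rgs5 holds neither. The sequences are from RefSeq on GRCm38.p6, read 5′ to 3′ on the strand of the gene, and capitals mark a CArG box or a near match. A near match was defined here as CC and GG with 6 bases between them, of which at least 5 were A or T; windows counted as holding it include those with a CArG box. Both forms read alike on the 2 strands of the DNA.
Myl9 (chr2:156775214-156775407): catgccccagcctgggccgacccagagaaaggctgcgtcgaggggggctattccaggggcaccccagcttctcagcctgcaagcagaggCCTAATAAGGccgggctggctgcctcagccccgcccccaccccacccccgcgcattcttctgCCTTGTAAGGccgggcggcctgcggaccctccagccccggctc
Rgs5 (chr1:169655251-169655500): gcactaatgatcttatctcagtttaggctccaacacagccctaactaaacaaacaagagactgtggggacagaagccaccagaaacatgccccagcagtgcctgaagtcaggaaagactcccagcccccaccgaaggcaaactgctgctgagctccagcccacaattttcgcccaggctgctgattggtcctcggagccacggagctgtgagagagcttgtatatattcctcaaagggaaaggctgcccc

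In Myl9 the CArG box ended 108 bases before the annotated 5′ end of the gene and the near match ended 46 bases before it. Acta2 (ENSMUSG00000035783, chromosome 19 from 34241090 to 34255590, minus strand), which encodes smooth muscle alpha actin, held a pair of near matches in its window. They began 133 and 183 bases inside the first exon of the GENCODE model, shown here with 8 bases on each side.
Acta2 (chr19:34255440-34255465): gctgaggtCCCTATATGGttgtgtta
Acta2 (chr19:34255390-34255415): tctttgctCCTTGTTTGGgaagcgag

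A promoter window (250 bases before to 50 bases after the RefSeq start) was listed for 6 of the 10 genes. A CArG box was present in the window of 1 of the 6 (Myl9), against 1.63% of all 32851 windows, and a box or near match in 2 of the 6 (Myl9 and Acta2), against 9.98% of all windows. These matches describe letters in a window and do not show binding.

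Before the genotypes were compared, the libraries were checked for signs that set 1 apart from others. Summed counts ranged from 14295069 to 17696784. Cochlear markers such as Coch and Otos were abundant in all 6 libraries (Coch 2030 to 2828 FPKM, that is, fragments scaled to transcript length and library depth). Pou4f3(Δ/+) replicates 1 and 2 stood apart on the first principal component of all tested genes, which held 32.5% of the variance, with scores of 23.2 and 40.2 against -21.5 to -11.7 in the other 4. The mean level of 8 B cell genes in these libraries was 5.41 and 5.54 log2 CPM (counts scaled to library size), against 4.14 to 4.64 in the others. Mitochondrial genes held 3.84% and 4.002% of their counts, against 4.26% in Pou4f3(Δ/+) replicate 3 and 4.30% to 4.54% in wildtype. Pou4f3(Δ/+) replicate 3 stood apart in another way. It held 1081 counts over 7 heart muscle genes, against 12 to 30 in each other library, and all 7 were highest in it. They included Actc1, cardiac actin, with 432 counts against 0 to 4, and Myh6, the atrial myosin heavy chain, with 254 counts against 2 to 9. Myh6 was named after its values were seen. The list of 20 skeletal muscle genes, some of which heart muscle also makes, was highest in this library too, with a summed 61.6 CPM against 29.3 to 39.6 in the others. Ttn (317 counts against 84 to 184), Mb (96 against 1 to 14), Myh7 (56 against 0 to 1) and Ckm (42 against 2 to 12) were highest in it. Neb (260 against 179 to 389) and Acta1 (7 against 0 to 13) lay inside the range of the other libraries. Mb, Myh7, Ckm and Acta1 were named after their values were seen. Heart muscle also makes desmin, and vessels of any tissue carry smooth muscle, so results are given below with and without these libraries. The part of these differences in the members' levels was not tested.

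**Figure D1:**
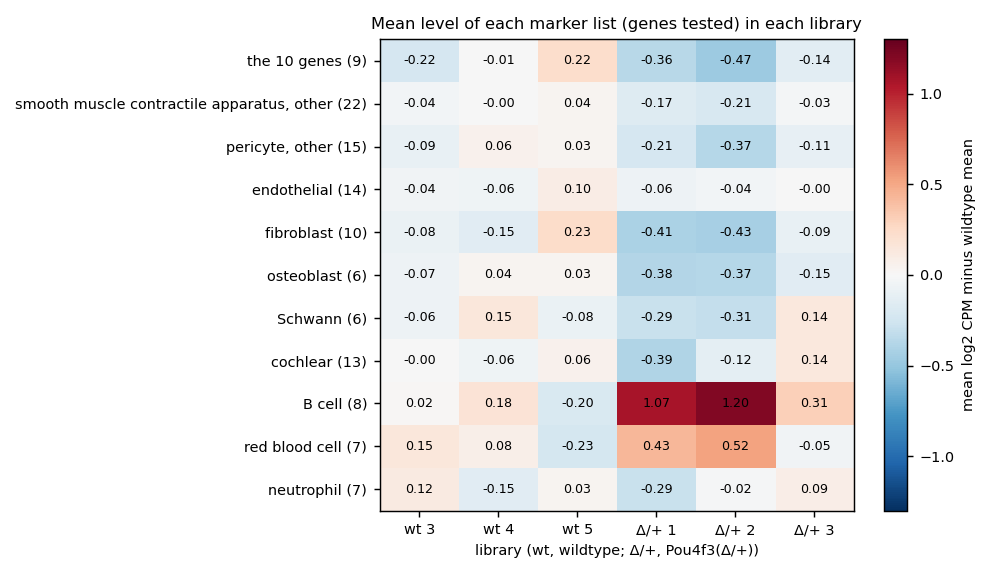
Mean log2 CPM of each marker list in each library, minus the mean of the 3 wildtype libraries (wt, wildtype; Δ/+, Pou4f3(Δ/+); the number of genes tested in each list is in brackets). The 9 tested members were lowest in Pou4f3(Δ/+) replicates 1 and 2 (-0.36 and -0.47), the same libraries in which fibroblast, osteoblast and Schwann cell lists were lowest and B cell and red blood cell lists were highest.

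Across the 6 libraries, members spanned a wide range of levels per length. Mean FPKM was 83.0 ± 15.3 for Myl9 (SD, n = 6), 53.6 ± 12.1 for Rgs5, 21.4 ± 1.84 for Pdgfrb, 18.2 ± 5.33 for Acta2 and 11.1 ± 3.78 for Tagln. The remaining 5 were far lower, at 3.23 ± 0.469 for Des, 2.85 ± 0.543 for Myh11, 1.97 ± 0.348 for Lmod1, 0.780 ± 0.431 for Actg2 and 0.258 ± 0.137 for Cnn1. Each gene exceeded the next in this order in 6 of 6 libraries, with the exception of Pdgfrb and Acta2. For each of those 8 pairs, an exact two-sided paired permutation test gave p = 0.03125, the smallest that 6 libraries allow, and an adjusted p of 0.0352 over the 9 pairs. Pdgfrb exceeded Acta2 in 4 of 6 libraries, by 0.29 ± 0.49 on the log2 scale (SD, exact permutation p = 0.281), so these neighbours did not differ beyond their spread. The closest pair that did was Des over Myh11, with a mean log2 difference of 0.19 ± 0.18.

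Myl9 was the member with which the question began. Its FPKM in wildtype was 93.96 (replicate 3), 92.52 (replicate 4) and 102.16 (replicate 5), and in Pou4f3(Δ/+) it was 63.42 (replicate 1), 71.36 (replicate 2) and 74.45 (replicate 3). The highest Pou4f3(Δ/+) library lay well below the lowest wildtype library, and replicates of a genotype lay close together. The wildtype mean was 96.2 ± 5.20 and the Pou4f3(Δ/+) mean 69.7 ± 5.69 (SD, n = 3), or 72.5% of wildtype, and the log2 fold change was -0.47 (SE 0.09, edgeR). It was -0.50 without Pou4f3(Δ/+) replicate 3 and -0.39 without replicates 1 and 2. The protein-coding transcript ENSMUST00000088552 held 98.0% of the gene's FPKM, with the remainder in processed transcripts.

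**Figure D2:**
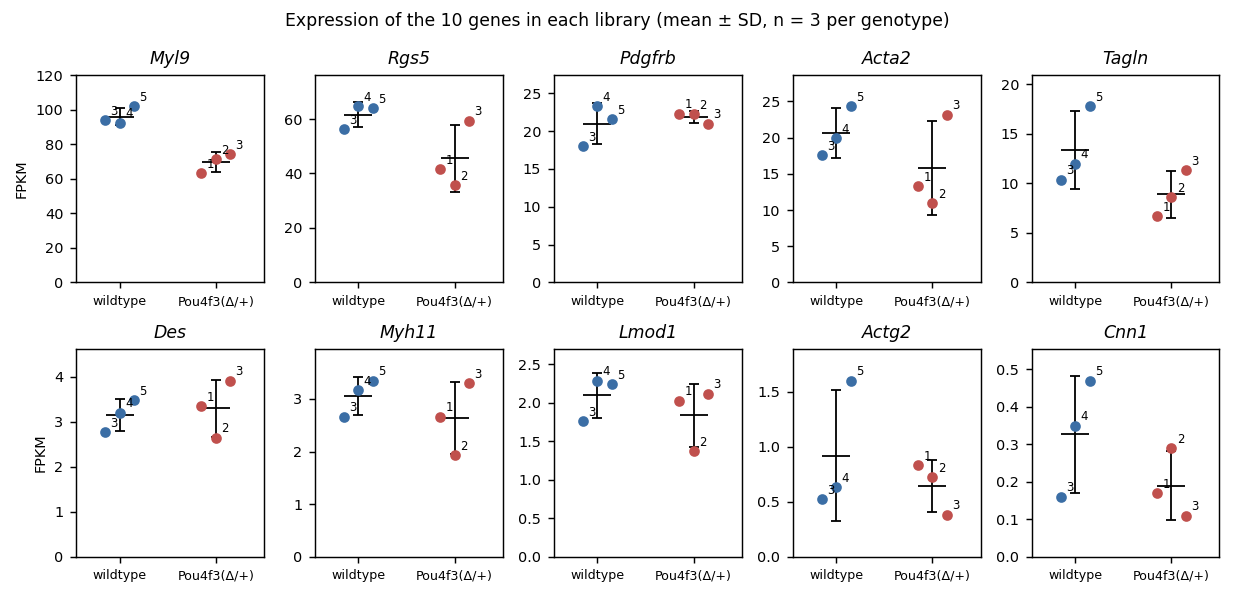
FPKM of each gene in each library (points, numbered by replicate), with the mean and SD of 3 libraries per genotype; the vertical axes start at 0 and differ between panels. In Myl9 alone among the 10 genes every Pou4f3(Δ/+) library lies below every wildtype library, whereas for Rgs5, Acta2 and Myh11 replicate 3 of Pou4f3(Δ/+) lies within the wildtype range.

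No other member was separated by genotype in this way. Every Pou4f3(Δ/+) library lay below every wildtype library for 1 of the 10 genes, in CPM and in FPKM, and for 6.59% of the 17136 genes tested in CPM. The reverse order was found for 0 of the 10 and for 6.07% of genes tested.

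The actin and the proteins that bind it came next. Acta2 FPKM was 17.57, 19.87 and 24.32 in wildtype and 13.26, 10.94 and 23.13 in Pou4f3(Δ/+) libraries, in the order of replicates used above. Replicates 1 and 2 of Pou4f3(Δ/+) lay below all wildtype libraries, but replicate 3 exceeded wildtype replicates 3 and 4. The log2 fold change was -0.39 (SE 0.25) with all libraries, -0.75 (SE 0.16) without Pou4f3(Δ/+) replicate 3 and 0.15 (SE 0.18) without replicates 1 and 2, a change of sign. In every fit without replicates 1 and 2, replicate 3 is the only Pou4f3(Δ/+) library, and it holds heart muscle transcripts. The SE of such a fit rests on the spread of the wildtype libraries.

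Tagln (chromosome 9 from 45929619 to 45936058) encodes transgelin, an actin-binding protein of smooth muscle. Its FPKM was 10.35, 11.95 and 17.76 in wildtype and 6.68, 8.61 and 11.34 in Pou4f3(Δ/+). Only replicate 3 of Pou4f3(Δ/+) overlapped wildtype, and then only with wildtype replicate 3, while wildtype replicate 5 was well above all others. The log2 fold change was -0.63 (SE 0.24), the lowest of the members with over 100 counts in a library, and stayed below 0 with each library left out (-0.83 to -0.36). A Tagln transcript with a retained intron, ENSMUST00000216035, was chosen because of its values. Its share of Tagln FPKM was 2.05% in wildtype against 7.51% in Pou4f3(Δ/+), at 0.26, 0.19 and 0.37 FPKM against 0.53, 0.57 and 0.90. These levels rest on estimated counts of 2.47 to 12.3 and the transcript was below the count filter, so no test was made.

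Actg2 and Cnn1 were close to the limit of detection. Actg2 (chromosome 6 from 83512905 to 83536265), enteric smooth muscle gamma actin, had 11, 12 and 27 counts in wildtype and 12, 12 and 6 in Pou4f3(Δ/+). Its fold change of -0.70 (SE 0.47) was therefore imprecise, and wildtype replicate 5 alone lay above all other libraries. Cnn1 (chromosome 9 from 22099216 to 22109630), the smooth muscle calponin, had 4 to 9 counts in every library and did not pass the count filter. Without the filter its log2 fold change was 0.02 (SE 0.63), so no difference was detectable at this depth.

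Myh11 (chromosome 16 from 14194535 to 14291372) encodes the smooth muscle myosin heavy chain. Its FPKM was 2.66, 3.17 and 3.35 in wildtype and 2.66, 1.93 and 3.30 in Pou4f3(Δ/+). Only replicate 2 lay below the wildtype range, and the log2 fold change of -0.22 (SE 0.18) became 0.09 without replicates 1 and 2. Lmod1 (chromosome 1 from 135324807 to 135368065), leiomodin, nucleates actin filaments in smooth muscle. It behaved much like Myh11, at 1.76, 2.29 and 2.24 FPKM in wildtype and 2.03, 1.37 and 2.12 in Pou4f3(Δ/+), and its log2 fold change was -0.19 (SE 0.20) with all libraries and -0.00 without replicates 1 and 2.

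Des (chromosome 1 from 75360329 to 75368579) encodes desmin, an intermediate filament of muscle cells and pericytes. Its FPKM was 2.77, 3.20 and 3.48 in wildtype and 3.35, 2.65 and 3.92 in Pou4f3(Δ/+). The highest value of the 6 was in Pou4f3(Δ/+) replicate 3, the library with heart muscle transcripts, and the genotypes overlapped throughout. The log2 fold change was 0.04 (SE 0.17), and -0.06 without that library.

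The pericyte genes gave different pictures. Rgs5 FPKM was 56.18, 64.68 and 63.88 in wildtype and 41.64, 35.71 and 59.38 in Pou4f3(Δ/+). Replicates 1 and 2 lay below all wildtype libraries, and replicate 3 lay within the wildtype range. The log2 fold change was -0.44 (SE 0.16) with all libraries, -0.66 (SE 0.10) without Pou4f3(Δ/+) replicate 3 and -0.07 (SE 0.11) without replicates 1 and 2.

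Pdgfrb (chromosome 18 from 61045150 to 61085061), the PDGF receptor of pericytes, was nearly level. Its FPKM was 18, 23.28 and 21.58 in wildtype and 22.32, 22.26 and 20.97 in Pou4f3(Δ/+), and all 3 Pou4f3(Δ/+) libraries lay within the wildtype range. The log2 fold change was 0.06 (SE 0.10), or 104% of the wildtype mean FPKM. The FPKM ratio of Rgs5 to Pdgfrb was 3.12, 2.78 and 2.96 in wildtype and 1.87, 1.60 and 2.83 in Pou4f3(Δ/+), so it was lower in replicates 1 and 2 and not in replicate 3. In bulk RNA such a ratio does not give a level per pericyte. The ratio of Myl9 to Pdgfrb was 5.22, 3.97 and 4.73 in wildtype and 2.84, 3.21 and 3.55 in Pou4f3(Δ/+). Its lower values follow from the lower Myl9 and the nearly level Pdgfrb, so they are not a further result.

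**Figure D3:**
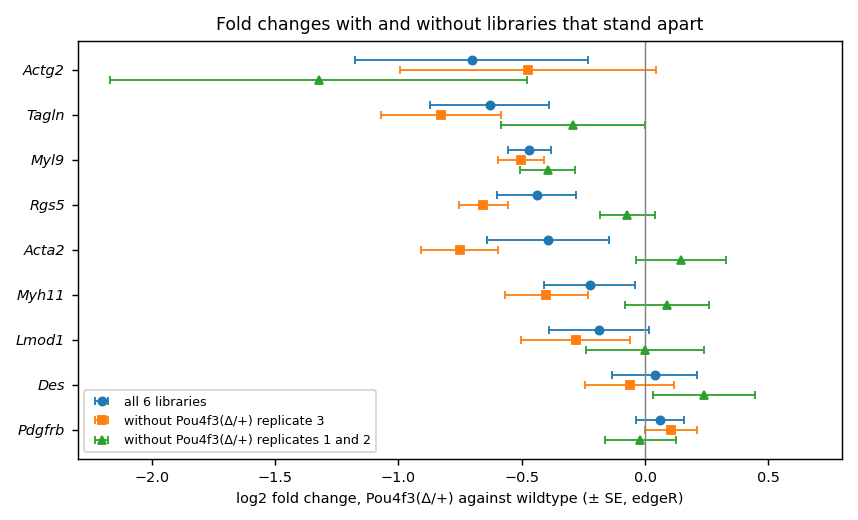
Log2 fold change of the 9 tested genes in Pou4f3(Δ/+) against wildtype from edgeR, with its SE, for all 6 libraries (circles), without Pou4f3(Δ/+) replicate 3 (squares) and without replicates 1 and 2 (triangles). Rgs5 moves from -0.66 to -0.07 and Acta2 from -0.75 to 0.15 between the latter fits, whereas Myl9 stays between -0.50 and -0.39.

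Taking the 9 tested members as a list, 7 had a log2 fold change below 0, against 50.6% of all genes tested, and their median was -0.39, against -0.00 for all genes. The median was -0.31 without Myl9, -0.48 without Pou4f3(Δ/+) replicate 3 and -0.02 without replicates 1 and 2, in which fit 6 of the 9 were below 0, against 51.3% of genes. It was -0.23 without wildtype replicate 5, in which 6 of the 10 genes had their highest FPKM of all 6 libraries, and -0.20 without Pou4f3(Δ/+) replicate 2. Within Pou4f3(Δ/+), the libraries were not alike. Relative to the wildtype mean, the mean log2 CPM of the 9 tested members was -0.36, -0.47 and -0.14 in replicates 1, 2 and 3. Wildtype libraries ran from -0.22 to 0.22. At an adjusted p under 0.05 edgeR called 0 of the 9, as it called 0.0% of the 17136 genes, whose smallest adjusted p was 0.223. At an unadjusted p under 0.05 there were 3 (Myl9, Tagln and Rgs5, all lower, with 0 higher), against 4.14% of genes on the lower and 3.5% on the higher side. DESeq2 called 1, Myl9, which was lower, with 0.199% of genes called lower and 0.175% higher, and edgeR without Pou4f3(Δ/+) replicate 3 called 1, Rgs5, also lower, with 0.451% of genes called lower and 0.651% higher. Since the members were named with this contrast known, these counts describe the list only.

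How the members vary between libraries of 1 genotype was not used to choose them. Each member's log2 CPM was taken relative to its genotype mean, and Pearson's r was computed over the 6 libraries, as a description without a p, since libraries of a genotype share that mean and differ in composition. The median r over the 36 pairs of tested members was 0.31. After the values were seen, 5 genes (Acta2, Myh11, Des, Rgs5 and Lmod1) were noted to vary together, with r of 0.73 to 0.98. Among wildtype libraries all 5 were lowest in replicate 3, and among Pou4f3(Δ/+) libraries all 5 were lowest in replicate 2 and highest in replicate 3. Acta2 had the widest swing, from -0.43 in replicate 2 to 0.60 in replicate 3.

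Myl9 varied little and followed this group loosely, with r of -0.15 to 0.46. It went with Tagln instead (r of 0.90), and both had their wildtype high in replicate 5 and their Pou4f3(Δ/+) low in replicate 1. Pdgfrb did not follow the group (r of -0.10 to 0.28).

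**Figure D4:**
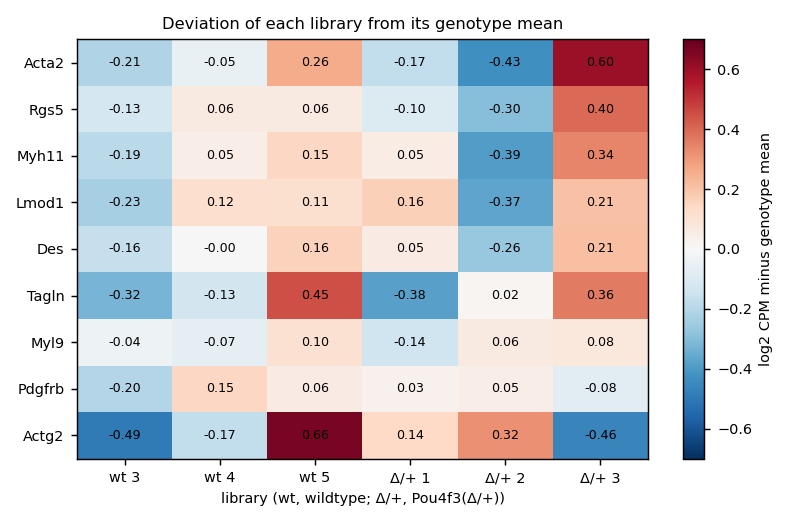
Log2 CPM of each tested gene in each library minus the mean of its genotype. Acta2, Rgs5, Myh11, Lmod1 and Des share low values in Pou4f3(Δ/+) replicate 2 (-0.43 to -0.26) and high values in replicate 3 (0.21 to 0.60), while Myl9 stays within -0.14 to 0.10 and Pdgfrb is within 0.1 of its mean in all 3 Pou4f3(Δ/+) libraries.

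The genes whose deviations most resembled the mean of the members were Armcx2 (r of 0.996), Gm3055, Gm8189, Abhd6, Nkapl, 0610038B21Rik, Pcp4l1, Vit, Prss35 and 9930014A18Rik (r of 0.993). With 6 libraries such values are common: 180 tested genes had r over 0.95.

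Across the 171 genes tested in the 17 other lists, edgeR called 0 at an adjusted p under 0.05. DESeq2 called 7, with 0.199% of all genes called lower and 0.175% higher, and edgeR without Pou4f3(Δ/+) replicate 3 called 13, with 0.451% of all genes called lower and 0.651% higher. Of the 7, 4 were B cell genes that were higher, and of the 13, 6 were. Among other genes of the contractile apparatus, of 22 listed genes, all tested, 19 had a log2 fold change below 0, against 50.6% of all genes. In the fit without Pou4f3(Δ/+) replicates 1 and 2 this held for 13 of the 22, against 51.3% of genes. The median was -0.16 with all libraries, or -0.05 in that fit, and with 1 library left out it was -0.12 to -0.10, the latter without Pou4f3(Δ/+) replicate 2. Neither edgeR nor DESeq2 called any at an adjusted p under 0.05, and 4 had an unadjusted p under 0.05 in edgeR, all lower, against 4.14% of all genes lower and 3.5% higher. These were Smtn, smoothelin (-0.19, SE 0.08), Itga8, an integrin of mesenchymal cells (-0.24, SE 0.09), and the tropomyosins Tpm1 (-0.20, SE 0.09) and Tpm2 (-0.51, SE 0.22), of which both tropomyosins were named after their values were seen. Smtn FPKM was 18.43, 20.78 and 18.08 in wildtype and 15.93, 17.06 and 16.75 in Pou4f3(Δ/+), without overlap. The most abundant genes of the list, which are made in many cell types, had -0.05 (SE 0.10) for Myl6, the essential light chain, -0.04 (SE 0.08) for Flna, filamin A, and -0.15 (SE 0.08) for Csrp1.

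The other pericyte genes resembled Rgs5 more than Pdgfrb in sign. Of 15 genes, all tested, 12 had a log2 fold change below 0, against 50.6% of all genes. Without Pou4f3(Δ/+) replicates 1 and 2 this held for 10, against 51.3% of genes. The median was -0.29 with all libraries, or -0.16 without those replicates. Neither edgeR nor DESeq2 called any at an adjusted p under 0.05, and 4 had an unadjusted p under 0.05 in edgeR, all lower, against 4.14% of all genes lower and 3.5% higher: Rgs4, a relative of Rgs5, Cspg4, the NG2 proteoglycan, and, named after their values were seen, Notch3 and Anpep. Rgs4 FPKM was 31.31, 30.77 and 31.28 in wildtype and 23.09, 18.61 and 26.85 in Pou4f3(Δ/+), without overlap, and its log2 fold change was -0.45 (SE 0.12). Without Pou4f3(Δ/+) replicate 3, Rgs4 was called by edgeR (adjusted p = 0.045), at -0.56, and without replicates 1 and 2 its log2 fold change was -0.23. Cspg4 FPKM was 2.87, 3.27 and 3.59 in wildtype and 2.29, 1.70 and 2.50 in Pou4f3(Δ/+), again without overlap (-0.48, SE 0.18). For both genes the Pou4f3(Δ/+) order was that of Rgs5, with replicate 2 lowest and replicate 3 highest. Kcnj8, a potassium channel of pericytes named after its values were seen, ran the other way at 2.95, 3.14 and 3.11 FPKM in wildtype and 3.46, 3.80 and 3.27 in Pou4f3(Δ/+) (log2 fold change 0.20, SE 0.15).

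**Figure D5:**
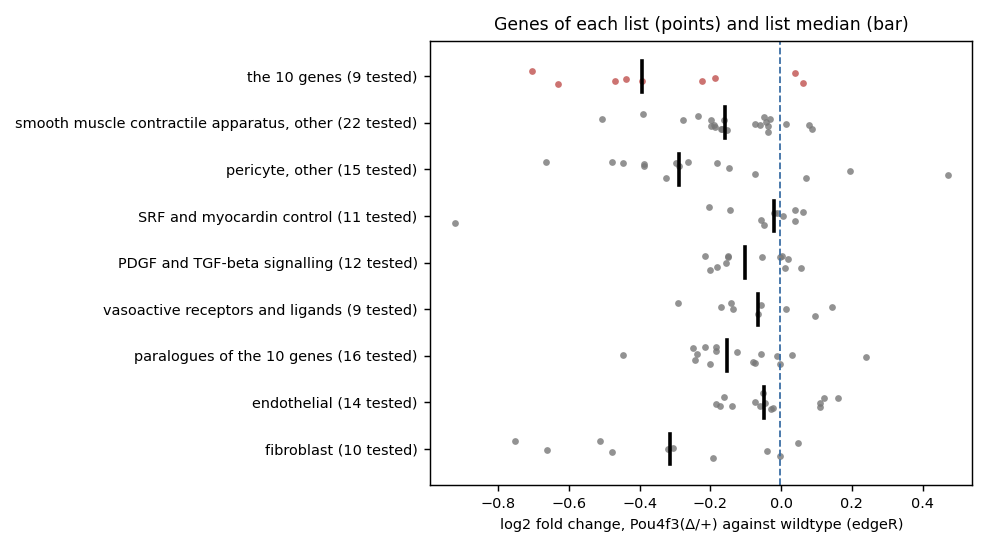
Log2 fold change of each tested gene (points, spread vertically for clarity) and the list median (black bar), with the median of all tested genes as a dashed line. The medians are -0.39 for the 9 tested members (-0.31 without Myl9, and -0.02 without Pou4f3(Δ/+) replicates 1 and 2), -0.31 for fibroblast and -0.29 for other pericyte genes, while endothelial genes (-0.05) and the SRF and myocardin list (-0.02) lie near the dashed line.

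Of the 12 regulators in the SRF and myocardin list 11 were tested, 7 were below 0 and the median was -0.02, from -0.07 without wildtype replicate 3 to 0.01 without wildtype replicate 4. Myocd, which encodes myocardin itself, had 0 to 6 counts in every library and was not tested. The SRF coactivator gene Mrtfa, listed as Mkl1, had a log2 fold change of -0.02 (SE 0.08), and Klf4, a repressor of contractile genes, had 0.04 (SE 0.10). Hey2, a target of Notch signalling, had -0.20 (SE 0.12). Foxf1, a mesenchymal forkhead factor, had 0.67, 0.58 and 0.48 FPKM in wildtype and 0.28, 0.29 and 0.34 in Pou4f3(Δ/+) (log2 fold change -0.92, SE 0.33). It was the 1 gene of the 11 tested with an unadjusted p under 0.05, against 4.14% of all genes lower and 3.5% higher. Of 8 tested immediate early genes, several of which SRF also controls, 0 had an unadjusted p under 0.05, against 4.14% of all genes lower and 3.5% higher. In log2 fold change 8 were below 0, against 50.6% of all genes, and the median was -0.22. This median moved with single libraries: it was -0.02 without wildtype replicate 5, in which 7 of the 8 had their highest FPKM, -0.02 without Pou4f3(Δ/+) replicate 3, -0.37 and -0.38 without wildtype replicates 3 and 4, and -0.69 without Pou4f3(Δ/+) replicates 1 and 2. In FPKM, 5 of the 8 were lowest in Pou4f3(Δ/+) replicate 3, among them Junb (15.64 against 22.97 to 30.74), whereas Egr2 was lowest in Pou4f3(Δ/+) replicate 2 (2.74 against 3.77 to 6.22).

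In PDGF and TGF-beta signalling, 8 of 12 genes were below 0 with a median of -0.10, or -0.02 without wildtype replicate 5 and -0.15 without Pou4f3(Δ/+) replicates 1 and 2. Tgfb2 alone of the 12 had an unadjusted p under 0.05, against 4.14% of all genes lower and 3.5% higher. Its FPKM was 11.82, 11.12 and 13.93 in wildtype and 10.48, 9.87 and 10.71 in Pou4f3(Δ/+) (log2 fold change -0.20, SE 0.09). Of 9 tested vasoactive receptors and ligands, 6 were below 0 and 0 had an unadjusted p under 0.05, against 4.14% of all genes lower and 3.5% higher. The median of -0.07 ran from -0.13 without wildtype replicate 5 to 0.00 without wildtype replicate 4. Ednra, the endothelin receptor of smooth muscle, had a log2 fold change of -0.14 (SE 0.12).

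Members have close relatives made outside muscle, and reads of these could be confused. Of 16 tested relatives, 14 were below 0, against 50.6% of all genes, with a median of -0.15, or -0.09 without Pou4f3(Δ/+) replicates 1 and 2. At an unadjusted p under 0.05 there were 3 lower and 1 higher, against 4.14% of all genes lower and 3.5% higher. Actg1, cytoplasmic gamma actin, had 869.77, 794.68 and 843.51 FPKM in wildtype and 730.34, 772.60 and 623.48 in Pou4f3(Δ/+) (log2 fold change -0.24, SE 0.11), while Actb was level at 0.03 (SE 0.11). Rgs2 went against Rgs4 and Rgs5, with 0.24 (SE 0.10). Stretches of 50 bases shared with a relative made up 0.352% of Acta2 (with Actg1), 0.4% of Myh11 (with Myh9) and 0.246% of Myh11 (with Myh10), and 0 were found between Acta2 and Actc1, the cardiac actin.

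Genes of neighbouring cell types were read beside the members. Of 14 endothelial genes, 10 were below 0, against 50.6% of all genes. Their median was -0.05, or -0.00 without Pou4f3(Δ/+) replicates 1 and 2 and 0.02 without wildtype replicate 5. At an unadjusted p under 0.05 there were 0, against 4.14% of all genes lower and 3.5% higher. In FPKM, 6 were lowest of the 6 libraries and 3 highest in Pou4f3(Δ/+) replicate 2, the library in which 5 of the 10 members were lowest. Fibroblast genes were closer to the members: 9 of 10 were below 0, the median was -0.31 with all libraries, -0.20 without wildtype replicate 5 and -0.08 without Pou4f3(Δ/+) replicates 1 and 2. At an unadjusted p under 0.05, 3 were lower and 0 higher, against 4.14% of all genes lower and 3.5% higher. Col1a1, a fibrillar collagen chain, was at 78.41, 86.93 and 131.54 FPKM in wildtype and 51.81, 48.39 and 77.67 in Pou4f3(Δ/+) (log2 fold change -0.75, SE 0.22). Of 13 cochlear genes 8 were below 0 and 5 above, and the median was -0.13 with all libraries and 0.04 without Pou4f3(Δ/+) replicates 1 and 2. Kcne1, a potassium channel subunit of the stria vascularis, was lower in all 3 Pou4f3(Δ/+) libraries, at 47.13, 47.71 and 49.33 FPKM in wildtype and 28.35, 15.95 and 34.71 in Pou4f3(Δ/+). B cell genes ran opposite, with 8 of 8 above 0, a median of 0.86, and 0.17 without replicates 1 and 2. Cd79a stood at 88.04 and 108.78 FPKM in those libraries, against 37.09 to 45.95 in the other 4. Red blood cell genes followed them, with 7 of 7 above 0 and a median of 0.30, or -0.05 without replicates 1 and 2. The osteoblast list had 5 of 6 genes below 0, with a median of -0.16, or -0.27 without Pou4f3(Δ/+) replicates 1 and 2 and -0.07 without wildtype replicate 5. At an unadjusted p under 0.05, 2 were lower and 0 higher, against 4.14% of all genes lower and 3.5% higher. The 2 were Alpl (log2 fold change -1.07, SE 0.29) and Sp7 (-0.63, SE 0.12). Medians of the remaining lists changed sign with the libraries used. The Schwann list, with 5 of 6 genes below 0, had -0.08, or 0.17 without Pou4f3(Δ/+) replicates 1 and 2, and the neutrophil list, with 5 of 7, had -0.04, or 0.11. The skeletal muscle list, with 5 of 9, had -0.01, or 0.31 without those libraries and 0.39 without wildtype replicate 3. Of the cardiac list 1 gene passed the count filter, Tnni3, at 1.5 with all libraries and -0.32 without Pou4f3(Δ/+) replicate 3. The part of cell composition in the lower Rgs5 and Acta2 of Pou4f3(Δ/+) replicates 1 and 2 was not tested.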

How the data were processed

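For each of 128603 transcripts the authors deposited an expected count (an estimate, often fractional) and FPKM, which the authors scaled to transcript length and library depth. The submitters' processing notes name mm8 and DESeq2. The aligner and counting program are not given in the sources used here. Transcript identifiers were matched to GENCODE M21, which gave the coordinates. Values were summed by gene symbol. Counts were rounded and tested with edgeR 4.0.16 in R 4.3.3 (filterByExpr, minimum count 10 and total 15, TMM, quasi-likelihood test, no covariates, Benjamini-Hochberg adjustment over 17136 genes or 38347 transcripts), after the script had been tested on simulated data. Each SE was obtained from the log2 fold change and its F statistic. CPM are TMM-scaled, and log2 CPM used a prior count of 2. Alternatives were DESeq2 1.42.0, limma 3.58.1 on log2(FPKM + 0.5), other filters and scalings, and libraries left out. At depths of 14295069 to 17696784 counts, the genes with the fewest counts, Actg2 and Cnn1, were measured least precisely. The members and all 17 gene lists were chosen with earlier results of these data known. Named genes were the members, the 3 most abundant and the 2 of smallest unadjusted p in each list (not all are described), the 10 of highest likeness, and each main transcript. Myocd, Myh9 and Myh10 are named outside this rule, for a role or a shared sequence. Others are marked in the text as named after their values were seen.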

Additional observations from a re-analysis of the deposited data

Results flagged for a closer look

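The heart muscle genes lay outside the comparisons, since 6 of 7 did not pass the count filter. In Pou4f3(Δ/+) replicate 3 they summed to 1081 counts (72.7 CPM), above the wildtype libraries (1.23 to 2.01 CPM) and the other Pou4f3(Δ/+) libraries (0.786 and 1.36 CPM). Besides Actc1 and Myh6, the ventricular light chains Myl2 and Myl3 had 134 and 133 counts there and at most 6 elsewhere, and Nppa, the atrial natriuretic peptide, had 35 counts and at most 2 elsewhere. Of genes shared with slow skeletal muscle, Myh7 had 56 counts against 0 to 1 and Mb had 96 against 1 to 14. Myh6, Myl3, Nppa, Myh7 and Mb were named after their values were seen. Where these transcripts came from was not tested.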

How the results depend on the processing

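Over 15 alternatives per gene (14 for Actg2), the fold changes of Myl9, Tagln, Rgs5, Lmod1 and Actg2 kept their sign, Acta2 and Myh11 changed sign in 1 each and Des and Pdgfrb in 2 each. Genes called numbered 0 by edgeR, 64 by DESeq2, 9 without the low-count filter, 1 by limma on log2(FPKM + 0.1), 6 without Pou4f3(Δ/+) replicates 1 and 2, and 0 to 193 with a library left out. Members called numbered 1 by DESeq2 and 0 to 1 with a library left out, and members lower 7 to 9. Called list genes numbered 7 by DESeq2, 2 without Pou4f3(Δ/+) replicates 1 and 2, and 0 to 13 with a library left out. Called transcripts numbered 130 by DESeq2, 1 without the filter and 0 to 3 with a library left out. The members' median log2 fold change was -0.19 by limma on log2(FPKM + 1), -0.018 without Pou4f3(Δ/+) replicates 1 and 2, and -0.49 to -0.20 with a library left out, and their mean log2 CPM differed by -0.32 with all libraries, -0.14 without Pou4f3(Δ/+) replicates 1 and 2, and -0.43 to -0.21 with a library left out. The median r between members was 0.21 to 0.65 with a library left out. The highest counts of called genes and list genes came without Pou4f3(Δ/+) replicate 3, and the cause was not tested. With Pou4f3(Δ/+) replicates 1 and 2 left out, the lone replicate 3 is assumed to vary like the wildtype libraries. No paired analysis was made because the labels give no pairing of samples.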
